A study of Mus musculus with 16 samples.

Results

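The circular RNA (circRNA) annotations with the highest read signal in mouse prefrontal cortex were examined, 95 of 14540 circRNA rows and of 18488 non-coding RNA (ncRNA) rows in all. A row entered this group when its name began with mmu_circ_ and its mean over 16 small RNA libraries reached at least 1000 normalised reads, that is reads divided by a size factor of each library. The members were chosen by this mean level, so their levels are given as a description. The limit fell between mmu_circ_0006200, mmu_circ_0000078 and mmu_circ_0000809, with means of 1014, 1112 and 1132, and mmu_circ_0008308, mmu_circ_0000101 and mmu_circ_0002335 just outside it, with means of 900.5, 899.5 and 757.6. Reads were not scaled to length, so the order of rows by reads is not an order by molecules.

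The libraries came from 8 PS19 mice and 8 wild-type (WT) littermates, both sexes in equal number, at about 9.6 months of age. PS19 mice carry, in heterozygous form, a human MAPT (tau) transgene with the P301S mutation under the mouse prion promoter, on a B6;C3 background, and WT littermates lack it. Each library was 1 perfused mouse. Library codes began with G for 8 PS19 and 2 WT mice, with F for 4 WT mice and with A for 2 WT mice, a letter whose meaning the labels do not give. The libraries held from 13187096 to 23058568 recovered reads, and circRNA rows took between 13.8% and 24.4% of them.

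Circular RNAs are closed loops, mostly made by back-splicing of exons, and are abundant in neurons. In small RNA libraries, whose inserts are short, most reads come from mature miRNAs, tRNA fragments and small nucleolar RNAs (snoRNAs). MiRNAs pair with messages through their seed, whereas box C/D snoRNAs, named after a pair of short motifs, guide methylation of ribosomal RNA or, in the Snhg14 locus, are processed from a long neuronal host transcript. Of the brain miRNAs, mean normalised reads were 486403 for mmu-miR-128-3p, 156881 for mmu-miR-9-5p, 30515 for mmu-miR-219a-2-3p and 11714 for mmu-miR-124-3p, but only 1048 for mmu-miR-138-5p. Of the blood and immune miRNAs, mmu-miR-451a had a mean of 15.6, mmu-miR-144-3p of 0.343, mmu-miR-142a-3p of 2.39 and mmu-miR-223-3p of 3.67, while mmu-miR-486a-5p stood at 975.6. Of the muscle and liver miRNAs, mmu-miR-1a-3p reached 6575, mmu-miR-206-3p 480.0, mmu-miR-133a-3p 15.4 and mmu-miR-122-5p 271.8.

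The miRNA sequences below belong to the rows that members of high mean, or of widely varying level, followed from library to library. They are mature sequences from RefSeq (GRCm38.p6), with the seed, bases 2 to 8, in capitals. All 7 seeds differ from each other.
mmu-let-7f-5p: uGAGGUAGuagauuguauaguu
mmu-miR-128-3p: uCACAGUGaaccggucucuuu
mmu-miR-382-5p: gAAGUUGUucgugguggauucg
mmu-miR-770-3p: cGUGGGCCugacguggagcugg
mmu-miR-103-3p: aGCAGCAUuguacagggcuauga
mmu-miR-204-5p: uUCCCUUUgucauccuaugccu
mmu-miR-1298-5p: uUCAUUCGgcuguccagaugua

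The snoRNA sequences below are some of those whose level members matched closely, together with 1 copy from each tandem array on chromosome 7. They are GENCODE M21 transcripts (GRCm38), given 5′ to 3′, with every TGATGA (the usual box C) and every CTGA (the usual box D) in capitals. Both motifs were found in 345 of the 824 snoRNA rows of the table (41.9%), and a match is a description of letters only.
Gm23212, chr1:161036682-161036741, plus strand: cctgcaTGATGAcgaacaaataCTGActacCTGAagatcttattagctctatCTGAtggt
Snord95, chr11:48803139-48803206, plus strand: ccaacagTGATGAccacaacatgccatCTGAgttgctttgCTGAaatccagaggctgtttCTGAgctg
Snord90, chr2:37400047-37400157, minus strand: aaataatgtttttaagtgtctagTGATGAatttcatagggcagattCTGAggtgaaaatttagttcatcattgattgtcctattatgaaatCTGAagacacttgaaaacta
AF357341, chr12:109681519-109681593, plus strand: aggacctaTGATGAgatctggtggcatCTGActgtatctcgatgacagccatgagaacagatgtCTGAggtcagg
Snord116l1, chr7:59894620-59894713, minus strand: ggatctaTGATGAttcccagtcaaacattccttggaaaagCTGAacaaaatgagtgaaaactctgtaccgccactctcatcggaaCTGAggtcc
Gm24528, chr7:59415590-59415668, minus strand: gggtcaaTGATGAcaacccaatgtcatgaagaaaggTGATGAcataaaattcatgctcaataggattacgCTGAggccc

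The 95 rows held almost all circRNA signal of every library. They took up 96.1% ± 1.46 (SD, n = 8) of the summed circRNA reads in PS19 mice, against 96.0% ± 1.16 (SD, n = 8) in WT mice, and ranged from 94.1% to 97.7% over the 16 libraries. The 5 rows of highest mean held 65.6% on average, and mmu_circ_0016169 alone held 14.4% ± 2.83 (SD, n = 8) in PS19 and 17.7% ± 5.76 in WT. Many members carried the same values. Pairs of rows whose log2 values correlated at 0.99 or more, with means no more than 2-fold apart, were joined, and rows linked through such pairs formed 1 set even where their own means lay farther apart, as in the Snord116 array. This gave 15 sets of more than 1 row, the largest with 13 rows, so the 95 members came to 52 distinct profiles.

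The members were then compared with the miRNA, snoRNA and tRNA rows. A member was said to follow a row when the Pearson r of log2(value + 1) over the 16 libraries was at least 0.95 with any of 933 such rows with a mean of at least 100, and the row of highest r was named as the one it followed. Of the 95 members, 46 followed a row, 20 of them a miRNA and 26 a snoRNA, and 0 followed a tRNA. Among all 4253 circRNA rows with a mean of at least 5, 119 did so (2.8%). The share was 48.4% for the members, 33.1% (52 rows) for circRNA rows with a mean of 100 to 1000, and 0.525% (21 rows) for those with a mean of 5 to 100. Sampling noise lowers r in rows of few reads, and its part in this order was not tested. Abundant rows of the other classes were compared in the same way with miRNA, snoRNA and tRNA rows outside their own class. CircRNA rows were left out of this search. The same r was reached by 7 of 145 miRNA rows, 2 of 218 snoRNA rows, 7 of 109 tRNA rows and 0 of 32 small nuclear RNA (snRNA) rows. All rows of a library share its depth and size factor, so r is given as a description.

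**Figure D1:**
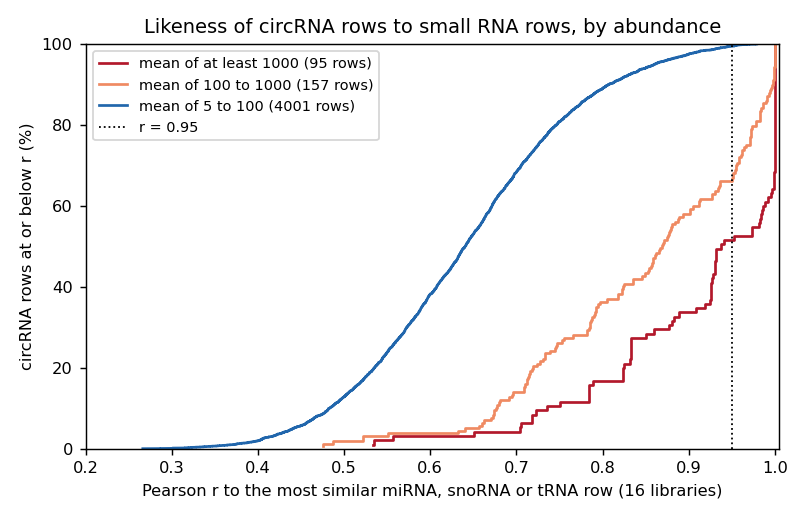
Cumulative share of circRNA rows (y axis, percent) by the Pearson r to the most similar miRNA, snoRNA or tRNA row over 16 libraries (x axis), drawn as 1 line per class of mean normalised reads. The line of the 95 rows with a mean of at least 1000 climbs last, with a median r of 0.94 against 0.87 for means of 100 to 1000 and 0.64 for means of 5 to 100, and 46 of the 95 lie at or right of the dotted line at 0.95.

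The likeness was one of level as well as of pattern. Of the 46 followers, 37 had an r of at least 0.99, and 19 stayed within 2% of the row they followed in every library. They followed 32 different rows and held 84.7% of the circRNA signal on average. The lowest Spearman's rho among the 46 was 0.929, and the lowest r was 0.94 once the 2 libraries farthest from the median of the row followed were left out.

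The member of highest mean, mmu_circ_0016169, followed mmu-let-7f-5p, a member of the let-7 family that is abundant in mature neurons. Its normalised reads were 218102, 416031 and 749034 (lowest, median, highest) in PS19 and 246372, 603392 and 1099749 in WT, and the groups overlapped over most of their range. In each library the row was no lower than mmu-let-7f-5p and at most 100.6% of it (mean 552972 against 550494). RefSeq places the mature sequence at 2 positions, overlapping an exon of the long non-coding RNA 6720427I07Rik on chromosome 13 (48537889 to 48537910, minus strand) and in an intron of the ubiquitin ligase gene Huwe1 on chromosome X (151912353 to 151912374, plus strand).

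The next 4 members, mmu_circ_0008144, mmu_circ_0008145, mmu_circ_0000075 and mmu_circ_0008146, had nearly the same values and followed mmu-miR-128-3p, a neuronal miRNA. For mmu_circ_0008144 the normalised reads were 163400, 500574 and 671342 (lowest, median, highest) in PS19 and 237280, 444759 and 650708 in WT. They amounted to between 87.1% and 89.4% of the mmu-miR-128-3p row in the 16 libraries, so the offset was steady. Together these 4 rows held 49.5% of the circRNA signal. The mature sequence has 2 positions, in an intron of R3hdm1 on chromosome 1 (128202404 to 128202424, plus strand) and in an intron of Arpp21 on chromosome 9 (112118644 to 112118664, minus strand).

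**Figure D2:**
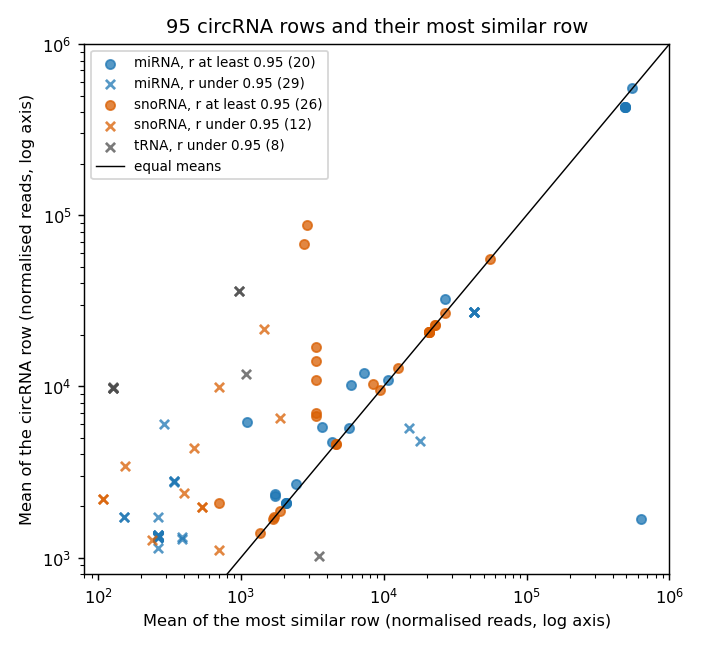
Mean normalised reads of each of the 95 circRNA rows (y axis, log scale) against the mean of its most similar miRNA, snoRNA or tRNA row (x axis, log scale), with filled circles where r is at least 0.95 and crosses where it is lower. Circles crowd along the line of equal means, while a column of snoRNA circles stands above it at a mean near 3365, and 1 circle lies far below it at mmu-let-7c-5p.

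Among the snoRNA followers, single rows were matched most closely. The circRNA row mmu_circ_0003731 equalled AF357341, a snoRNA of the imprinted Dlk1-Dio3 region, in every library (100% at both ends of the range), with 1127, 1634 and 1901 normalised reads (lowest, median, highest) in PS19 and 1125, 1581 and 2475 in WT. In no library was mmu_circ_0003065 below Snord95 or above 100.1% of it. This snoRNA sits inside Rack1, the gene of a ribosomal scaffold protein, and the circRNA row had 19665, 27472 and 44202 in PS19 and 15110, 24795 and 34567 in WT. Its numbered neighbour mmu_circ_0003064 kept as close to Snord96a (at most 100.2%), at chromosome 11, 48802032 to 48802112, in the same gene. Here as before the PS19 and WT libraries overlapped.

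Snord90, in an intron of Rc3h2, was matched by a pair of members. The rows mmu_circ_0009915 and mmu_circ_0009916 were at most 100.1% of it and never below it, and normalised reads of mmu_circ_0009915 were 15109, 20221 and 43623 (lowest, median, highest) in PS19 and 19122, 21116 and 29067 in WT. A pair of the snoRNAs in Gas5, a non-coding host gene on chromosome 1 that carries several, were matched as well. The row mmu_circ_0000106 did not exceed 100.1% of Gm23212 and was never below it, with 32865, 57313 and 83928 in PS19 and 43449, 55139 and 69771 in WT. The same held for mmu_circ_0008333, at most 100.1% of Mir5117, which GENCODE lists as a snoRNA at 161037356 to 161037439.

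Some members stood at a steady multiple of the row they followed. The row mmu_circ_0001579 was between 500.3% and 502.9% of Snord116l1, and mmu_circ_0001578 between 200.1% and 200.9% of it. Snord116 snoRNAs are repeated many times inside introns of Snhg14, a long host transcript on chromosome 7 that is imprinted and expressed from the paternal allele. In the table, 14 snoRNA rows, Snord116l1 itself included, stayed within 0.5% of it, and their 14 sequences were 1 and the same, so their reads cannot be told apart by sequence. Multiples of this kind led, after the data were seen, to a comparison with sums of neighbouring rows.

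For that comparison, the reads of up to 80 neighbouring miRNA and snoRNA rows on 1 strand, over at most 600 kb, were summed, and a member matched when it stayed within 2% of a sum in all 16 libraries. Of the 95 members, 37 matched, 19 of them with 1 row and 18 with a sum of more rows. Of these 37, 34 were among the followers and 3 were not, which leaves 12 followers that matched no sum and 46 members that did neither. By the same rule, 0 of 109 abundant tRNA rows, 0 of 32 abundant snRNA rows and 4 of 23 circRNA rows with a mean of 500 to 1000 matched. Where more than 1 sum matched a member, the one given is that with the fewest rows.

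**Figure D3:**
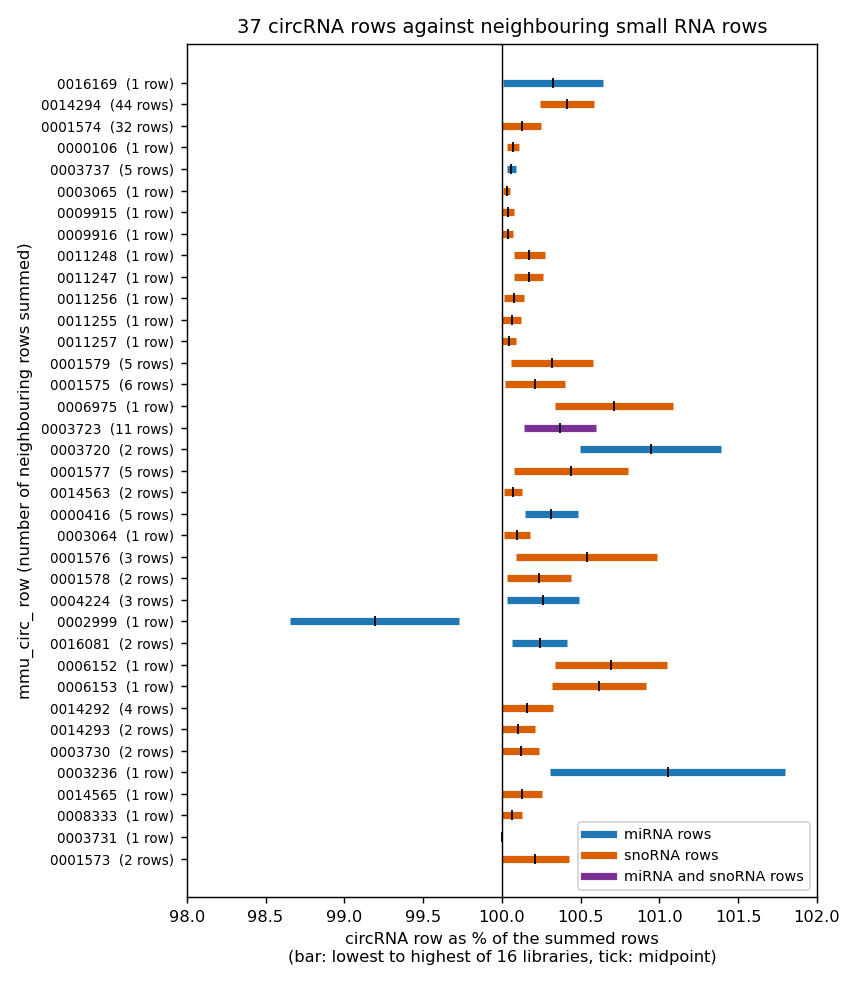
The 37 members that matched a sum of neighbouring rows (y axis, with the number of rows summed), each shown as its value in percent of that sum (x axis), from the lowest to the highest of 16 libraries. All but mmu_circ_0002999, which lies between 98.7% and 99.7% of mmu-miR-103-3p, start at the line of 100% or just right of it.

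In Snhg14, 10 of these members matched rows on the minus strand of chromosome 7 between 59393561 and 59884592. The row mmu_circ_0014294 matched the sum of 44 neighbouring snoRNA rows from Gm22130 to Gm25461 (59426795 to 59516617), staying between 100.2% and 100.6% of it. Its normalised reads were 58110, 77003 and 120885 (lowest, median, highest) in PS19 and 75422, 95723 and 130303 in WT, so it overlapped between genotypes. The 44 rows held 20 different sequences, each row with a mean between 28.3 and 4608. The row mmu_circ_0001574 matched 32 neighbouring rows from Gm25523 to Gm24652 (59509068 to 59567169), reaching at most 100.3% of their sum, with 10 different sequences among them. The single rows of highest r lay in the same cluster but outside the sum of the member concerned, Gm24528 (from 59415590) for the first (r = 0.99) and Gm24027 (from 59460677) for the second (r = 0.99), and these 2 snoRNAs have the same 79 bases. In the Snord116 array, mmu_circ_0001579 matched 5 rows, mmu_circ_0001575 6, mmu_circ_0001577 5, mmu_circ_0001576 3 and mmu_circ_0001578 2. Another pair of members followed no single row but matched sums here, mmu_circ_0014292 with 4 rows (59393561 to 59409141) and mmu_circ_0014293 with 2 rows (59412802 to 59414169).

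A further 6 members matched rows on the plus strand of chromosome 12 between 109563710 and 109734209, the maternally expressed part of the imprinted Dlk1-Dio3 region. The row mmu_circ_0003737 matched 5 neighbouring rows from mmu-mir-382 to mmu-miR-134-5p inside Mirg, reaching at most 100.1% of their sum. The mean of mmu-miR-382-5p equalled 82.6% of its mean and that of mmu-miR-134-5p, a dendritic miRNA of neurons, 12.7%. Its normalised reads were 16471, 33317 and 54005 (lowest, median, highest) in PS19 and 13953, 33710 and 44702 in WT, which overlapped. The row mmu_circ_0000416 matched 5 rows that included mmu-miR-666-5p (58.5% of its mean) and mmu-miR-543-3p (40.7%). The row mmu_circ_0003720 matched both arms of mmu-miR-770 in Meg3, of which the 3p arm had a mean equal to 97.7% of its own. The row mmu_circ_0003723 matched 11 rows in Rian, among them mmu-miR-370-3p (60.4%) and the snoRNA AF357425 (23.0%). The snoRNA AF357341, matched on its own by mmu_circ_0003731, had a mean equal to 70.6% of that of mmu_circ_0003730, with Gm23736 at 29.3%, and their sum matched it.

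Other miRNA loci gave the same picture on a smaller scale. The row mmu_circ_0004224 matched the hairpin and both arms of mmu-miR-1843a (the 5p arm at 63.3% of its mean), mmu_circ_0016081 matched both arms of mmu-miR-361 in an intron of Chm (the 3p arm at 91.5% of its mean), and mmu_circ_0003236 lay between 100.3% and 101.8% of mmu-miR-744-5p. The row mmu_circ_0014563 matched the sum of Snord111 (81.9% of its mean) and Gm22193 (18.1%) inside the splicing factor gene Sf3b3, and mmu_circ_0014565 matched Gm22193 alone.

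Of the 12 followers without a matching sum, the 4 rows at mmu-miR-128-3p and 2 rows at mmu-miR-744-5p kept a narrow ratio to the row they followed, and the other 6 a wider one. The row mmu_circ_0007629 was between 111.8% and 207.9% of mmu-miR-204-5p, a miRNA in an intron of Trpm3 that is abundant in choroid plexus, and mmu_circ_0016145 was at least 102.5% of mmu-miR-1298-5p, which lies in an intron of the serotonin receptor gene Htr2c. Of the followers, mmu_circ_0016145 had the largest SD of log2(value + 1), 1.79. The normalised reads of mmu_circ_0016145 were 176, 1443 and 12602 (lowest, median, highest) in PS19 and 293, 878 and 9370 in WT, and those of mmu_circ_0007629 were 1334, 1969 and 7368 in PS19 and 1129, 1782 and 5219 in WT. In both genotypes the highest library was replicate 3. Of the 2 choroid plexus markers, mmu-miR-204-5p was also highest there, at 6592 in PS19 replicate 3 and 4144 in WT replicate 3, whereas mmu-miR-449a-5p stood at 5.79 and 1.71 in these libraries and at 0 to 18.9 over all 16. The part of choroid plexus RNA in these values was not tested. The pair of lowest r among the followers was mmu_circ_0007152, at 0.231% to 0.310% of mmu-let-7c-5p (r = 0.95).

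The other 49 members followed no miRNA, snoRNA or tRNA row. Their r to the most similar row ranged from 0.53 to 0.94, with a median of 0.83, and that row was a miRNA for 29, a snoRNA for 12 and a tRNA for 8. They came to 22 distinct profiles and held 11.3% of the circRNA signal on average. The highest were mmu_circ_0011095 and mmu_circ_0004868, with 17957, 30332 and 80151 normalised reads (lowest, median, highest) in PS19 and 21075, 29255 and 62095 in WT for the former, and r = 0.83 and 0.82 to Mus_musculus_tRNA-Val-AAC-1-1. They shared their pattern with 5 further rows (mmu_circ_0008779, mmu_circ_0008780, mmu_circ_0008781, mmu_circ_0000038 and mmu_circ_0000039), whose most similar row was mmu-let-7d-5p (r = 0.83). The row mmu_circ_0003729, at 16558, 19720 and 29963 in PS19 and 17071, 21695 and 27234 in WT, was closest to the snoRNA Gm25449 (r = 0.88). The row mmu_circ_0000791, at 9722, 11638 and 15690 in PS19 and 9306, 11034 and 14209 in WT, was closest to Mus_musculus_tRNA-Ala-TGC-2-1 (r = 0.89).

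Of the 49, 2 followed a small nuclear RNA, a class outside the rows compared above, when it was added after the data were seen. The row mmu_circ_0000380 had r = 0.9999 with Gm23804 and lay between 99.9% and 101.0% of the sum of 3 snRNA rows on chromosome 12 (54696782 to 54714381, plus strand). Its normalised reads were 8498, 10070 and 10773 (lowest, median, highest) in PS19 and 6677, 9702 and 15001 in WT. The row mmu_circ_0008929 had r = 0.99 with Gm25939 and lay between 82.5% and 91.8% of it. Across the 16 libraries the SD of log2(value + 1) had a median of 0.66 among the 49 and of 0.42 among the 46 followers.

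PS19 and WT mice were then compared to ask which of these rows differ in abundance with tauopathy, by limma on log2(value + 1) over all 6024 rows with a mean of at least 5. Differences are PS19 minus WT on that log2 scale, which understates the change of low rows. Of the 95 members, 15 had an unadjusted p-value under 0.05, 2 higher and 13 lower in PS19, beside 4.0% of all rows tested (241 of 6024), 1.86% higher and 2.14% lower. The 13 lower rows had near-identical values and counted as 1 profile, as did the 2 higher rows, so that 2 of 52 distinct profiles (3.85%) passed. That number was 1 with class totals, 4 with DESeq2 or edgeR and 7 with the replicate block, and ranged from 1 (without WT replicate 8) to 5 (without PS19 replicate 1) as single libraries were left out. The 13 lower rows had a mean under 1000 in PS19 and reached the limit through WT, where they were high, so the rule for members had a part in the count of lower calls and nothing is read from it. Of the 80 members with both means at or over 1000, 2 were under 0.05. No member passed after Benjamini-Hochberg adjustment (0 of 95, beside 0.0% of all rows; smallest adjusted p = 0.9998, limma), nor with DESeq2 or edgeR. The median difference was -0.03 over the 95 members and -0.02 over all 6024 rows. Scaling each class to its own total left 7 members under 0.05, 2 higher and 5 lower (2.77% of all rows), while DESeq2 gave 7 higher and 13 lower (4.7% of all rows) and edgeR 7 higher and 12 lower (4.4%). With the code letter as a covariate, 4 members were under 0.05, 4 higher and 0 lower (2.06% of all rows), so every lower call was lost. In that fit the difference rests on the 8 PS19 and 2 WT libraries of letter G. Without WT replicate 7, 9 members were under 0.05 (4.85% of all rows). In whole tissue, fewer cells of a type and less RNA per cell cannot be told apart.

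The 2 rows higher in PS19 were mmu_circ_0004213 and mmu_circ_0004214. Normalised reads of mmu_circ_0004213 were 1602, 2307 and 3451 (lowest, median, highest) in PS19 and 1262, 1532 and 2113 in WT. The upper 5 PS19 libraries stood above every WT library and the other 3 overlapped them. The difference was 0.59 ± 0.19 (SE, limma), with p = 0.00218 in a two-sided exact permutation test over the 16 libraries and an adjusted p of 0.9998 (limma). The unadjusted p-value was under 0.05 in all 28 alternatives, which were limma fits, left-out libraries included, besides DESeq2 and edgeR. With the code letter as a covariate, which sets 8 PS19 against 2 WT libraries of letter G, the difference was 0.74. Its most similar small RNA row was the snoRNA Gm25229, with r of only 0.53. This snoRNA, one of the rows in the sum matched by mmu_circ_0014293, had 92.6, 773 and 2426 normalised reads in PS19 (lowest, median, highest) and 102.6, 125 and 173 in WT, a difference of 1.70 ± 0.64 (exact permutation p = 0.0729). The row mmu_circ_0004214 had the same pattern, at 0.59 ± 0.19 (exact permutation p = 0.00218).

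The next smallest p-values among members higher in PS19 were those of 4 near-identical rows, mmu_circ_0006925 to mmu_circ_0006928, which followed no row. For mmu_circ_0006926 the normalised reads were 5002, 9398 and 23029 (lowest, median, highest) in PS19 and 5775, 6766 and 11313 in WT, and the groups overlapped. The difference was 0.47 ± 0.27 (exact permutation p = 0.123), over 0.05 by limma but under it by DESeq2 (0.61), by edgeR (0.64), with scaling to the library total, with the replicate block and without PS19 replicate 7 (0.63). Its most similar row was Mus_musculus_tRNA-Leu-CAG-3-1 (r = 0.78), with a difference of 1.003 ± 0.32 (exact permutation p = 0.00855, limma adjusted p = 0.9998). That tRNA was chosen for its likeness to a member of small p-value, so its difference is not a separate result.

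The 13 rows lower in PS19 were mmu_circ_0004701, mmu_circ_0004705 to mmu_circ_0004708, mmu_circ_0004711 to mmu_circ_0004717 and mmu_circ_0000809, with differences from -1.32 to -1.19 and unadjusted p-values from 0.0187 to 0.0280 (limma), which the choice of members by mean level limits as above. For mmu_circ_0004701 the normalised reads were 219, 480 and 2668 (lowest, median, highest) in PS19 and 452, 1615 and 4775 in WT. Of the PS19 libraries, 7 lay under 1000, as did 3 WT libraries, and PS19 replicate 8 lay within the upper WT values. Its difference was -1.19 ± 0.49 (SE, limma), and the two-sided exact permutation test gave p = 0.0608, over the threshold that the unadjusted limma test passed. With the code letter as a covariate the difference came to -0.65 and was over 0.05 by limma too. Within letter G, the one letter with both genotypes, the 8 PS19 libraries had a median of 480 and the 2 WT libraries of 987, whereas the 4 WT libraries of letter F had a median of 2287. The limma p-value of mmu_circ_0004701 was over 0.05 without PS19 replicate 6, without WT replicate 7 or without WT replicate 8 (-1.05 to -0.94). The letter and the genotype cannot be told apart beyond these 10 libraries.

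The most similar small RNA row of all 13 was the miRNA hairpin mmu-mir-5119, with r between 0.92 and 0.93, just short of the limit. This hairpin was chosen for its likeness to these rows, so its difference is not a separate result. It came to -0.74 ± 0.37 (exact permutation p = 0.102). The row mmu_circ_0014479 was also closest to this hairpin (r = 0.94), at 442, 808 and 4518 normalised reads in PS19 (lowest, median, highest) and 787, 2159 and 3779 in WT, and gave -0.87 ± 0.43 (exact permutation p = 0.108).

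**Figure D4:**
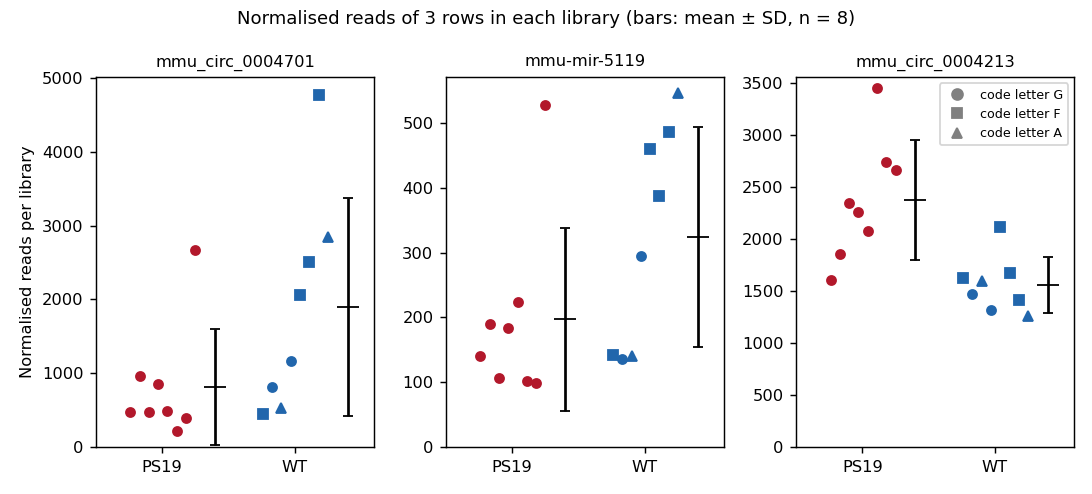
Normalised reads per library of mmu_circ_0004701, of the hairpin mmu-mir-5119 and of mmu_circ_0004213 (y axes from 0) in 8 PS19 and 8 WT libraries, with code letters as symbols and bars for mean ± SD (n = 8). In the left panel the WT libraries of letter F reach up to 4775 and 1 PS19 library reaches 2668, and in the right panel the PS19 libraries span 1602 to 3451 against 1262 to 2113 in WT.

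None of the 46 members that followed a row had an unadjusted p-value under 0.05 by limma on genotype alone, beside 4.0% of all rows tested. The same held for 0 of the 32 rows they followed. The 46 came to 30 distinct profiles, so a count of 0 is near that share and nothing is read from it. The difference of a member and that of its row were set side by side. They differed by at most 0.21 on the log2 scale, with a median of 0.00243, and had the same sign in 40 of 46. As member and row come from the same libraries and were paired for their likeness, this describes that likeness again and is no second measurement. Whether the same reads were counted in both rows was not tested. For mmu_circ_0016169 the difference was -0.29 ± 0.32 (exact permutation p = 0.432), as for mmu-let-7f-5p at -0.29 ± 0.32 (p = 0.433). For mmu_circ_0002999, the follower of mmu-miR-103-3p, it was -0.48 ± 0.32 (exact permutation p = 0.200), against -0.48 ± 0.32 (p = 0.196) for the miRNA. That member was under 0.05 by limma without WT replicate 7 (-0.65) and with the replicate number as a block or a linear term. The Snhg14 rows mmu_circ_0014294 and mmu_circ_0001574 gave -0.25 ± 0.18 and -0.22 ± 0.19 (exact permutation p = 0.151 and p = 0.225). Both changed sign with the code letter as a covariate (0.051 and 0.092), where the difference rests on the libraries of letter G.

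**Figure D5:**
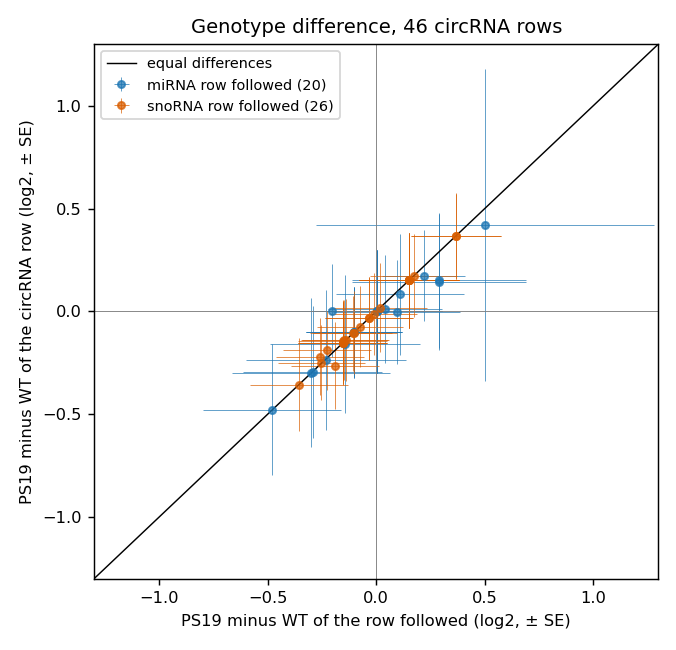
Difference PS19 minus WT on the log2 scale of each of the 46 following members (y axis) against that of the row followed (x axis), with bars for ± SE. Points lie along the line of equal differences, at most 0.21 from it, and all fall between -0.48 and 0.42 on the y axis.

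Rows of the other classes with a mean of at least 1000 were then split by whether any member had an r of at least 0.95 with them, a wider set than the 32 rows of highest r. Of 145 miRNA rows, 31 had such a member and 114 did not, and 0 of either set had an unadjusted p-value under 0.05 (limma). The highest without such a member were mmu-let-7a-5p (mean 300740), mmu-miR-127-3p (261526) and mmu-miR-9-5p (156881), whose best r to a member was 0.92, 0.95 and 0.91. For mmu-miR-127-3p the unrounded r of 0.947 lay just under the limit. Of 218 snoRNA rows, 115 had such a member, with 0 under 0.05, and 103 did not, with 8 under 0.05, all lower in PS19. Many of the 115 are copies with like values, so they are not separate cases. The highest of the latter were Snord2, Snord49a and Gm23130, with means of 328603, 290762 and 231024, and 76.9% of the snoRNA signal lay in rows of the latter kind. Of the 109 tRNA rows, 0 had such a member and 10 were under 0.05, all higher in PS19. Their highest, Mus_musculus_tRNA-Gly-GCC-2-3, Mus_musculus_tRNA-Gly-GCC-4-1 and Mus_musculus_tRNA-Gly-GCC-2-2, had nearly the same values, with a mean of 307577 for the first, and an r of at most 0.60 to any member. Among all tested rows of a class, 2.4% of miRNA, 4.63% of snoRNA and 5.43% of tRNA rows were under 0.05, beside 4.0% over all classes. Copies with like values occur among the tRNA rows too, so the calls are not separate cases. None of these calls passed adjustment over all 6024 rows with limma, and whether the sets differ from each other was not tested.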

How the data were processed

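Prefrontal cortex RNA of 8 PS19 and 8 WT mice was sequenced as single-end small RNA libraries. Per the methods of the study and the submitters' processing notes, the authors aligned reads with STAR 2.5.3a in COMPSRA (mm10) and used DESeq2 1.42.1. The deposited values are a normalised signal, read counts that the authors divided by 1 size factor per library, and whole reads were recovered by division. For WT replicates 4 and 6 that step was close to 1 and rests on weaker evidence. The sources used here do not say whether a read that fits several annotations was counted under each. All value columns of single libraries were used (0 unused). The same table holds the authors' log2 fold changes, standard errors, means, Wald scores and p-values, which were not used.

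Rows were classed by name or GENCODE M21 biotype. Limma 3.58.1 in R 4.3.3 (lmFit, eBayes with trend, two-sided, genotype only) was run on log2(value + 1) of rows with a mean of at least 5, with Benjamini-Hochberg adjustment over all rows, and was tested on simulated data. Single rows were also given a two-sided exact permutation test of the mean difference (12870 splits). Alternatives were DESeq2 1.42.0 and edgeR 4.0.16 on recovered reads, other scalings, pseudocounts, filters and limits, array weights, the replicate number as a block or a linear term, the code letter, and each library left out. Correlations and sums used Python 3.11.15 with numpy 2.4.6, pandas 2.3.3 and scipy 1.17.1. Named were the 10 members of highest mean, of highest r and, among members following no row, of highest mean, the 5 smallest p-values in each direction, 3 rows on each side of the limit, their most similar rows, and the 3 highest rows per class with no member at an r of 0.95; other names were chosen after their values were seen. Members and lists were chosen with earlier results of these data known. Positions are from GENCODE (GRCm38) or RefSeq (GRCm38.p6), found for 2458 of 2795 miRNA and snoRNA rows. Positions and sequences of the circRNAs were not used here, and the levels of 1 set of 5 near-identical members are not reported here. Recovered reads of the 56 library pairs within a genotype differed far beyond sampling noise (lowest chi-square over its degrees of freedom 67.7), so each library counted as 1 sample.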

Additional observations from a re-analysis of the deposited data

Results flagged for a closer look

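One row of each of the 52 distinct profiles was tested in each genotype for a library that stood apart, by Dixon's gap divided by the range of the 8 libraries, at the 95% level. Where values are normally distributed, chance alone picks out about 1 in 20 such groups. Reads were used without a log and need not be, so the chance share may be higher. The rows are not independent of each other. Of 104 groups, 23 (22.1%) had such a library.

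PS19 replicate 1 was the highest PS19 library of 8 of these rows. Its gap was 0.603 of the range for mmu_circ_0009915, which follows Snord90, 0.594 for mmu_circ_0011248, and 0.692 for mmu_circ_0006975, which follows Gm22858. It was 0.602 for mmu_circ_0003723 and 0.666 for mmu_circ_0000416, both with miRNAs of chromosome 12, and 0.552 for mmu_circ_0008333, which follows Mir5117. For mmu_circ_0009028 and mmu_circ_0005487 it was 0.731 and 0.539. In WT, mmu_circ_0005487 was also highest in replicate 1, with a gap of 0.532.

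Replicate 3 was highest in both genotypes for the rows that follow miR-1298-5p and miR-204-5p. The gap of mmu_circ_0016145 was 0.715 in PS19 and 0.667 in WT, and that of mmu_circ_0007629 was 0.823 in PS19 and 0.676 in WT. WT replicate 3 was highest for mmu_circ_0002480, which follows Snord37, with a gap of 0.539.

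Replicate 8 was highest for rows of the Snhg14 arrays. The gap in WT was 0.547 for mmu_circ_0014294, 0.568 for mmu_circ_0014292 and 0.544 for mmu_circ_0014293, and in PS19 it was 0.688 for mmu_circ_0014293. PS19 replicate 8 was also highest for mmu_circ_0014479 (0.746) and mmu_circ_0004701 (0.695), the rows closest to mmu-mir-5119.

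Single cases were PS19 replicate 5 for mmu_circ_0008721 (0.708), WT replicate 5 for mmu_circ_0000939 (0.542), and PS19 replicate 7, the lowest library of mmu_circ_0003730 (0.537).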

How the results depend on the processing

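Of the 95 members, 46 followed a miRNA, snoRNA or tRNA row, and the count stayed within 1.5 times of that in all 26 alternatives (37 to 63; 45 to 55 with 1 library left out). The number of members with an unadjusted p under 0.05, 15 by limma, was 7 after scaling within classes, 4 with the code letter as a term (4 higher, 0 lower), 2 with near-identical members counted once and 0 for members with a mean of at least 2000. It ranged from 9 (without WT replicate 7) to 19 as single libraries were left out. The number with an adjusted p under 0.05 was 0 in all 28 alternatives (0 to 0 with libraries left out), with the smallest adjusted p at 0.0989 (DESeq2). The share of circRNA signal was 94.7% for a limit of 2000 and 96.0% to 96.2% with libraries left out. With the code letter as a term, mmu_circ_0014294 and mmu_circ_0001574 turned to 0.051 and 0.092, and the cause was not tested. Over all 6024 rows, the calls under 0.05 went from 241 to 418 with array weights and 124 with the code letter, and to 680 of 17088 rows without the filter, and DESeq2 gave 15 with an adjusted p under 0.05, 0 of them members. Members matching a sum numbered 35, 40 and 40 at tolerances of 1, 5 and 10%, and 38 with snRNA rows.

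The replicate number as a block gave 24 members under 0.05, in 7 distinct profiles, and 419 rows in all (6.96%). Samples of the same number correlated by 0.04 to 0.46, over 0.1 in 6 of 8 pairs, and 2 of 8 correlated best with their own number, so the numbers were not taken as a pairing. No pseudocount or scaling moved the median difference of all rows by over 0.1. With 8 mice per genotype, the standard errors of the members ran from 0.16 upwards. The parts of counting noise, mouse and library preparation in this spread were not tested. Mouse and library coincide here, so the spread of the latter pair cannot be told apart.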
